A study of Mus musculus with 8 samples.

Results

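The genes described are 9 that encode myelin proteins or act in oligodendrocyte maturation: Mbp, Mobp, Mog, Mag, Cnp, Mal, Opalin, Myrf and Bcas1. They were chosen by name from the 26711 features of a single-nucleus RNA count matrix of mouse primary visual cortex (V1), and every one of the 9 was found there. Their level was taken as CPM, the usual scaled count: the unique molecular identifiers (UMIs, 1 per captured RNA molecule) of a gene, summed over the nuclei of a cell type in a library and scaled so that every type and library has the same total. The rule used no measured value, though earlier results of these data were known when the genes were chosen. By the GENCODE annotation of GRCm38, which matches mm10, Mbp lies at chr18:82475146-82585637, Mobp at chr9:120149707-120181484 and Cnp at chr11:100574904-100591729, all on the plus strand. The other 6 lie on the minus strand, Mog at chr17:37010743-37023398, Mag at chr7:30899176-30914873, Mal at chr2:127633226-127656695, Opalin at chr19:41061710-41077113, Myrf at chr19:10208272-10240748 and Bcas1 at chr2:170346991-170427845.

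Oligodendrocytes wrap axons in myelin, a compacted stack of membrane that speeds conduction, and in the mouse cortex much of this membrane is laid down in the weeks after birth. Oligodendrocyte precursor cells (OPCs) first become committed, premyelinating cells, which then switch on the genes of compact myelin (Mbp, Mobp, Mal), of the myelin surface and the sheath facing the axon (Mog, Mag, Opalin) and of the cytoplasmic channels (Cnp). Myrf is the transcription factor that starts and keeps this programme on, and Bcas1 encodes a protein known as a marker of oligodendrocytes that are just starting to myelinate.

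All animals were P21 mice that carried the floxed GR allele (GR fl/fl; GR is the glucocorticoid receptor, encoded by Nr3c1) and received an AAV at P0 to P1 with the astrocyte promoter GfaABC1D. In GR-Con the vector carried ΔCre, a truncated recombinase, and in GR-KO it carried Cre, so that deletion was aimed at astrocytes and not at the oligodendrocyte lineage. Mice were reared under a normal light cycle (NR) or in constant darkness until collection (DR). Crossing vector and rearing gave 4 groups, and each had 2 libraries, 1 from a male and 1 from a female. The vector also carried EGFP with a membrane anchor (CAAX). The labels give a sort of nuclei on the DNA dye DRAQ5, and the study's methods add that GFP-negative events were taken.

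The 8 libraries held 102330 nuclei, from 9517 to 15161 each, with a median of 14861 to 29223 UMIs per nucleus. The deposited cell table named 20 cell types, among them 5418 Oligo nuclei (492 to 814 per library) and 2848 OPC nuclei (231 to 479 per library). The total over a library's Oligo nuclei was 4.95e+06 to 9.09e+06 UMIs, and over its OPC nuclei 2.02e+06 to 3.06e+06 UMIs. By median UMIs per nucleus the NR GR-KO libraries were the deepest (22828 in the male, 29223 in the female). The DR GR-KO libraries were the shallowest (14928 and 14861), so within GR-KO depth and rearing cannot be told apart. GR-Con libraries lay between, at 17760 (male) and 15884 (female) in NR and at 16968 and 20161 in DR. Within each rearing depth and genotype thus cannot be told apart either. Of 101098 distinct barcode sequences, 1220 occurred in more than 1 library (2452 nuclei). The type names were checked against markers: all 12 OPC-list genes were highest in OPC, and 18 of 19 other myelin and paranode genes were highest in Oligo, the exception being Gpm6b, highest in astrocytes. Of 10 late mature genes 6 were highest in Oligo, with Apod and Ptgds highest in VLMC and Il33 and Grm3 in astrocytes. Cre had UMIs in the astrocyte nuclei of all 4 GR-KO libraries (4.14 to 10.4 CPM) and none in those of GR-Con, whereas in Oligo nuclei it had 3 UMIs in 1 GR-KO library and 1 UMI in another. EGFP had at most 2 UMIs in the Oligo nuclei of a library, against 8.63 to 23.4 CPM in astrocytes. Nr3c1 was at 138 to 169.6 CPM in Oligo nuclei of every library. In astrocytes it was at 207 to 263 CPM in GR-Con and at 268 to 284 CPM in GR-KO, so its count did not mark the deletion.

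The stretch before the start of 3 genes is shown, of Mag and Cnp because both hold a MYRF and a SOX motif, and of Opalin because it was the gene called between the rearing conditions in Oligo nuclei. RefSeq promoter windows (GRCm38.p6) were matched for 6 of the 9 genes, Mog, Mobp, Mag, Cnp, Mal and Opalin. The bases upstream of the start were searched on both strands for CTGGCAC, the core of the published MYRF motif, for ACAAAG, the core bound by SOX factors such as SOX10, and for AGAACA, the half-site of GR. The 3 motifs share no bases with each other in these windows. CTGGCAC was in 2 of the 6 stretches (Mag and Cnp), against 4.19% of 32851 windows of 250 bases in the genome table. ACAAAG was in 4 of the 6 (Mobp, Mag, Cnp and Opalin; background 16.5%), with 6 copies in Mobp alone. AGAACA was in 0 of the 6 (background 16.1%). The 3 stretches below are printed 5′ to 3′ on the strand of the gene, with the MYRF and SOX motifs, on either strand, in capitals. They lie at chr7:30914923-30915172 (minus strand), chr11:100574689-100574903 (plus strand) and chr19:41077114-41077363 (minus strand). The letters say nothing of whether a factor was bound.
Mag: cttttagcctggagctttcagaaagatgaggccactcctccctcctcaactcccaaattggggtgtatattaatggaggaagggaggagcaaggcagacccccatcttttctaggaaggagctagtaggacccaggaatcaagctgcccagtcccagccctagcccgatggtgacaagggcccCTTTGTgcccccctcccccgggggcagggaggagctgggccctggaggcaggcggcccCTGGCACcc
Cnp: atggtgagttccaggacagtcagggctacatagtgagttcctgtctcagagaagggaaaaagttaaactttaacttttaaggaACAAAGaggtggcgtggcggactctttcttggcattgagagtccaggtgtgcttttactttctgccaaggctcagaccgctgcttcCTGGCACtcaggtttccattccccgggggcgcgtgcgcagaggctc
Opalin: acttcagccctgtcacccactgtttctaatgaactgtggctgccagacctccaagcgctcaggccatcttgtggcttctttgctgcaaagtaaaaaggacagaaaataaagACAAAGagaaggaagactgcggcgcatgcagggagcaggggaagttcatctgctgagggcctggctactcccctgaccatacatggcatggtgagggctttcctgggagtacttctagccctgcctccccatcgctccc

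Across the 20 cell types, all 9 genes were highest in Oligo nuclei, and for each of them the lowest Oligo library lay above the highest library of the next type. Mbp, the myelin basic protein that holds the cytoplasmic faces of the membrane together, stood at 9155 ± 610.5 CPM (SD, n = 8 libraries) in Oligo nuclei and at 73.8 ± 13.6 CPM in OPC nuclei. Mobp, a second basic protein of compact myelin, stood at 3058 ± 324 CPM in Oligo and 15.8 ± 7.26 CPM in OPC nuclei. Mal, a lipid raft protein of compact myelin, stood at 359.9 ± 53.3 CPM against 10.9 ± 3.95 CPM. The step between these 2 types was thus 124-fold for Mbp, 194-fold for Mobp and 33.1-fold for Mal. The surface proteins had steps as steep: Mog, at the outermost lamella, had 1108 ± 174 CPM in Oligo and 5.34 ± 1.88 CPM in OPC nuclei, a 208-fold step. Mag, the adhesion protein of the innermost layer, had 562 ± 69.8 and 5.18 ± 2.82 CPM, a 108-fold step. Opalin, a glycoprotein specific to the oligodendrocytes of the central nervous system, had 299.95 ± 49.6 and 1.16 ± 0.687 CPM, a 258-fold step.

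The other genes had a shallower step. Cnp, an enzyme of non-compact myelin, had 169 ± 13.9 CPM in Oligo and 16.8 ± 3.97 CPM in OPC nuclei, a 10.0-fold step. Myrf had 110.4 ± 6.04 CPM in Oligo and 12.9 ± 3.67 CPM in OPC nuclei, an 8.58-fold step. Bcas1 had 1566 ± 267 and 677 ± 113 CPM, a 2.31-fold step. These ratios compare each gene with itself. They describe clusters that were formed on these same nuclei, so no test was made of them.

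**Figure D1:**
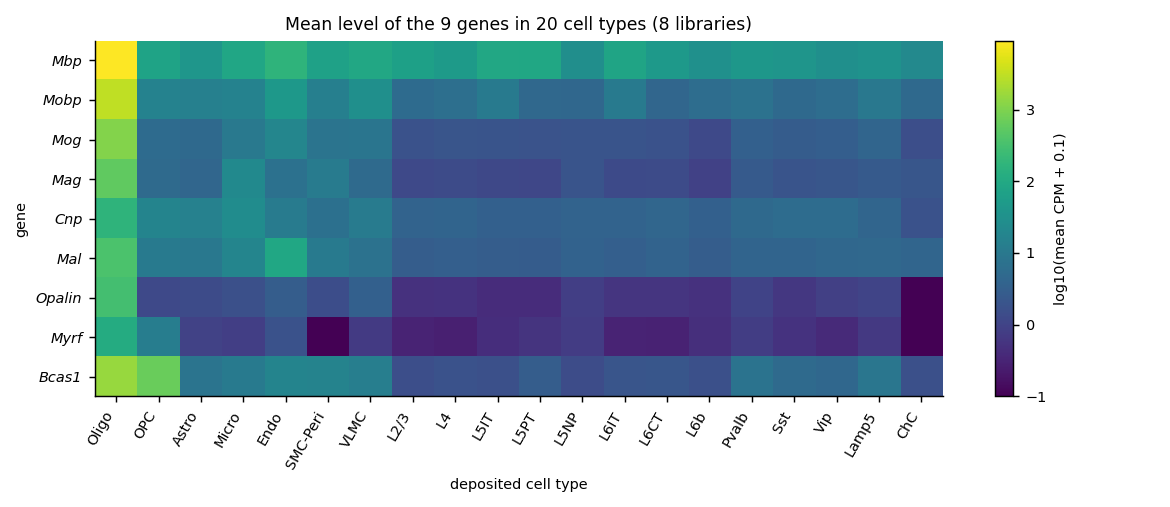
Mean level of each of the 9 genes (rows) in the 20 deposited cell types (columns) as log10 of mean CPM plus 0.1 over 8 libraries; brighter is higher. The Oligo column is the brightest in every row, and in the OPC column Bcas1 and Myrf stand above their level in the types to the right.

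OPC nuclei held RNA of Bcas1 and Myrf well above the level found in a cell type that lacks the programme. In OPC nuclei Bcas1 was 82.7-fold and Myrf 15.0-fold higher than in astrocyte nuclei, and Mbp 1.86-fold. The remaining genes stood between 0.923-fold (Opalin) and 1.23-fold (Mag) of their astrocyte level. With each nucleus thinned to 2000 UMIs, 67.7% of 2836 OPC nuclei had a Bcas1 UMI, against 1.74% of 9430 astrocyte nuclei (90.8% and 5.16% unthinned, at a median of 6229 and 6107 UMIs). The same share for Myrf was 2.33% of OPC and 0.148% of astrocyte nuclei (7.58% and 0.517% unthinned). For Mbp it was 13.2% of OPC nuclei and 6.78% of astrocyte nuclei (31.8% and 17.8% unthinned). Mog had a UMI in 0.776% of OPC and 1.10% of astrocyte nuclei thinned so, and Opalin in 0.247% and 0.265%. For Mog and Opalin the OPC share was therefore below the astrocyte share, though by CPM Mog stood at 1.08 times its astrocyte level. No expression in OPC nuclei is read from these shares, and the origin of this RNA was not tested. Mag (0.882% and 0.827%), Mobp (3.31% and 2.67%), Cnp (3.42% and 3.03%) and Mal (2.12% and 1.86%) lay close to the astrocyte share. Thinned to 1000 UMIs, 46.0% of OPC nuclei had a Bcas1 UMI and 1.09% a Myrf UMI.

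In Oligo nuclei themselves, thinned to 2000 UMIs (5402 nuclei), a UMI was found in 94.3% for Mbp, 78.8% for Bcas1, 78.1% for Mobp and 70.4% for Mog. It was found in 57.3% for Mag, 43.7% for Mal, 34.6% for Opalin, 27.6% for Cnp and 19.4% for Myrf. These shares follow how many UMIs a gene gives per nucleus as well as how many nuclei use it. Unthinned, at a median of 8864 UMIs, they ran from 59.3% (Myrf) to 98.1% (Bcas1).

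Outside the lineage the genes sat at low levels, and Mal in endothelium, Mag and Cnp in microglia, Cnp in astrocytes and Mbp in neurons are described here. As a description, each gene's UMIs were set against those of Mog in the same type, and the makeup of free RNA was not measured. Mal reached 89.3 ± 26.2 CPM in the 399 endothelial nuclei (as few as 5 in a library), 63.8 to 135 CPM over the libraries, second to Oligo and above every other type without overlap with the next. Its ratio to Mog there was 11.2 times the ratio in Oligo nuclei. The 3864 microglia nuclei, as few as 2 in a library, held 240 Mag UMIs, and the ratio to Mog was 3.76 times that of Oligo. They held 226 Cnp UMIs, 11.9 times the Oligo ratio, and in astrocytes Cnp was at 15.3 ± 2.63 CPM with 19.6 times the Oligo ratio. Mal had 5.72 times the Oligo ratio in astrocytes and 6.51 times in microglia. For Mbp in the 8 excitatory types the ratio to Mog was 2.03 to 7.05 times that of Oligo nuclei, while that of Opalin was 0.541 to 1.59 times and that of Mobp 0.901 to 2.13 times. Cnp (11.1 to 16.7 times) and Mal (4.45 to 7.48 times) also exceeded the Oligo ratio in these types, at mean levels of 3.70 and 2.86 CPM in L2/3 nuclei. Mbp stood at 92.8 ± 31.1 CPM in L5IT and at 67.3 ± 18.5 CPM in L2/3 nuclei. Thinned to 2000 UMIs, 12.5% of L2/3 nuclei had an Mbp UMI and 0.306% a Mog UMI. The Mbp locus is known to hold a second, upstream set of transcripts (golli) that neurons use, and counts per gene do not separate them.

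Among the genes most like the 9 in their pattern over the 20 types were Ermn, Golga7, Galnt6, Cldn11, 1700047M11Rik, Mtmr2, Cdc37l1, Gjb1 and Rcbtb1, named as a description. Pearson's r of log2(CPM + 1) with the mean profile of the 9, over the 20 type means, ran for these from 0.979 (Ermn) to 0.956 (Rcbtb1), and the type means share their libraries. Among the 9, the closest pair was Mog and Mobp (r = 0.979) and the least alike Mbp and Bcas1 (r = 0.723).

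Within the Oligo nuclei the 9 genes parted by stage. Each nucleus was placed by how many of Bmp4, Gpr17, Enpp6 and Neu4, genes of committed and newly formed oligodendrocytes, had a UMI in it. This division was made after the values were seen and gets no test, and it also moves with a nucleus's depth. Of the 5418 Oligo nuclei, 4143 held 0 or 1 of the 4 genes, 464 held 2 and 811 held 3 or 4, at median depths of 9299, 8812.5 and 7235 UMIs. No astrocyte or L2/3 nucleus held 3 or 4, in 9486 and 21913 nuclei. Of the 2848 OPC nuclei, 642 held 2 and 65 held 3, so these genes were not particular to Oligo nuclei.

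Bcas1 ran against the other genes. It was at 848 ± 86.1 CPM (SD, n = 8 libraries) in nuclei with 0 or 1 of the 4 genes, at 2579 ± 644 CPM with 2 and at 5384 ± 331 CPM with 3 or 4, with no overlap between the first and the last. Opalin fell away over the same classes, from 368 ± 43.9 CPM through 107 ± 64.5 to 3.76 ± 5.41 CPM. Mobp went from 3697 ± 408 to 35.2 ± 31.6 CPM, Mal from 442 ± 39.2 to 11.5 ± 5.19 CPM, and Mog from 1346 ± 148 to 46.3 ± 18.4 CPM. In the nuclei richest in the committed genes, Opalin, Mobp, Mal and Mog, all of the finished sheath, thus stood at less of their late level than any other of the 9 genes. Mag (646 ± 65.2 to 81.9 ± 15.2 CPM), Mbp (10276 ± 445 to 2848 ± 429 CPM) and Cnp (181 ± 10.98 to 95.9 ± 13.03 CPM) were lower there too, by smaller ratios. Myrf differed least between the classes, with 110.4 ± 6.67, 128 ± 12.5 and 96.6 ± 15.2 CPM in the 3 classes.

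**Figure D2:**
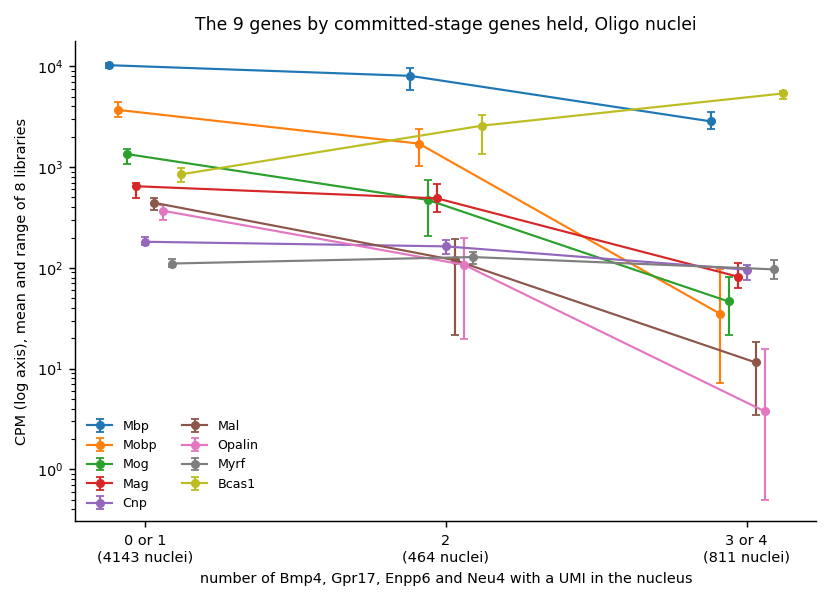
CPM on a log axis of the 9 genes in Oligo nuclei that held a UMI of 0 or 1, of 2, or of 3 or 4 of Bmp4, Gpr17, Enpp6 and Neu4; points are means and bars the range of 8 libraries, drawn down to 0.5 CPM at the lowest. Bcas1 climbs from 848 to 5384 CPM, Opalin drops from 368 to 3.76 CPM and Myrf stays between 96.6 and 128 CPM.

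Dark rearing was compared with normal rearing to ask whether visual experience changes these genes in the oligodendrocyte lineage. Over both genotypes (4 DR against 4 NR libraries, genotype as a term, edgeR likelihood ratio test, Benjamini-Hochberg adjustment over 13056 features), 1 of the 9 genes passed in Oligo nuclei, Opalin, which fell. The background was 3.98% of all features, 319 higher and 200 lower, and the 9 genes had a median log2 fold change of -0.15 against 0.00 for all features (-0.0021). By an unadjusted p under 0.05, 3 of 9 differed (33.3%), against 14.7% of all features. Each group had 2 animals. The spread behind each p-value was estimated with information shared over the features tested, so it is not that of these few animals alone.

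Opalin CPM in Oligo nuclei was 348 in the male and 373 in the female of NR GR-Con and 310.2 and 308 in NR GR-KO. It was 317 and 273 in DR GR-Con and 227 and 244 in DR GR-KO. The 2 DR GR-KO libraries were the lowest of the 8 and the DR GR-Con male overlapped the NR range. The log2 fold change of DR against NR was -0.34 (SE 0.11, edgeR adjusted p = 0.0398). The call was narrow: it was lost in 7 of 8 fits that each left out 1 library (edgeR adjusted p 0.0134 without the DR GR-Con male, otherwise 0.058 to 0.227), with log2 fold changes between -0.40 and -0.30, and the quasi-likelihood test gave an adjusted p of 0.0589.

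Bcas1 pointed the other way, and its call depended on the fit. Its Oligo level was 1382 (male) and 1294 CPM (female) in NR GR-Con, 1179.7 and 1577.5 in NR GR-KO, 1867 and 1561 in DR GR-Con and 1774 and 1892.5 in DR GR-KO. All DR libraries but the DR GR-Con female were above all NR libraries. The log2 fold change was 0.39 (SE 0.13, edgeR adjusted p = 0.0644), which missed the threshold. DESeq2 gave an adjusted p of 0.0206 and edgeR with sex as a term 0.0277, both past it.

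The surface proteins Mog and Mag had lower DR means. Mog was at 1298.5 and 1339 CPM in NR GR-Con, 1169.5 and 1105 in NR GR-KO, 1163 and 813 in DR GR-Con and 997 and 981.5 in DR GR-KO (log2 fold change -0.31, SE 0.14, edgeR adjusted p = 0.253). Mag was at 608 and 599 CPM in NR GR-Con, 632 and 587 in NR GR-KO, 592 and 412 in DR GR-Con and 545 and 524 in DR GR-KO (-0.22, SE 0.13, edgeR adjusted p = 0.46). For both genes the DR GR-Con female was the lowest library of the 8 and the DR and NR ranges overlapped.

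None of the compact myelin genes passed. Mbp was at 9531 and 10191 CPM in NR GR-Con, 9719.8 and 8934 in NR GR-KO, 8793 and 8321 in DR GR-Con and 8727 and 9026 in DR GR-KO (-0.14, SE 0.11, edgeR adjusted p = 0.669). Mobp was at 3416 and 3348 CPM in NR GR-Con, 3086 and 2556 in NR GR-KO, 2735 and 3416 in DR GR-Con and 2868.5 and 3038 in DR GR-KO (-0.03, SE 0.13, edgeR adjusted p = 0.957). Mal was at 429 and 411 CPM in NR GR-Con, 409 and 318 in NR GR-KO, 369 and 279 in DR GR-Con and 324 and 339 in DR GR-KO (-0.25, SE 0.14, edgeR adjusted p = 0.41). In all 3 the DR and NR libraries overlapped. Neither Cnp nor Myrf passed. Cnp was at 180.4 and 191 CPM in NR GR-Con, 183 and 158 in NR GR-KO, 167 and 159.8 in DR GR-Con and 162 and 152 in DR GR-KO (-0.15, SE 0.10, edgeR adjusted p = 0.565). Myrf was at 110.45 and 105 CPM in NR GR-Con, 115 and 99.99 in NR GR-KO, 107 and 116 in DR GR-Con and 111 and 118 in DR GR-KO (0.07, SE 0.10, edgeR adjusted p = 0.847).

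**Figure D3:**
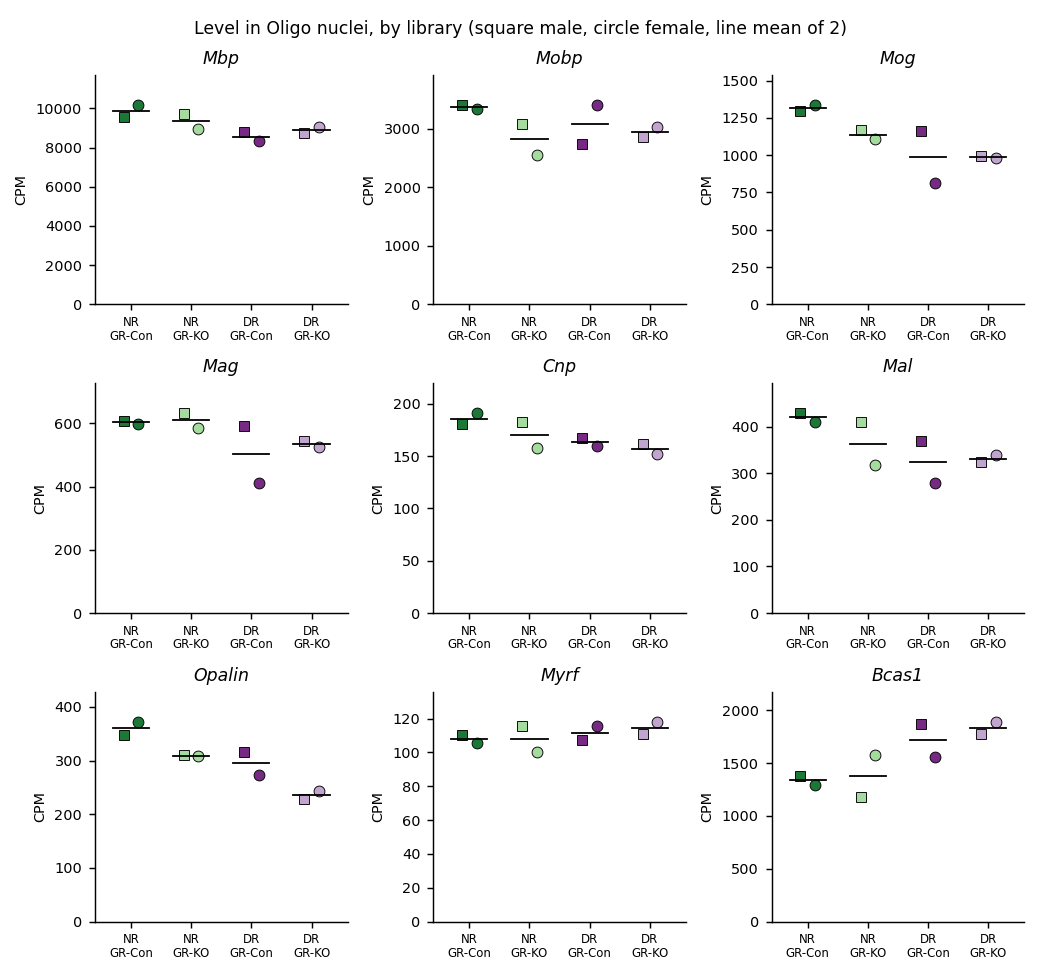
CPM in Oligo nuclei of each of the 9 genes, 1 point per library (square male, circle female) with the mean of the 2 libraries of each group as a line; every axis starts at 0. Opalin runs from 373 CPM in the NR GR-Con female to 227 CPM in the DR GR-KO male, and Bcas1 from 1179.7 CPM in the NR GR-KO male to 1892.5 CPM in the DR GR-KO female.

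Other genes of the lineage were counted by list in the same comparison. Of 10 committed and newly formed oligodendrocyte genes, 6 rose in DR Oligo nuclei and 0 fell (median log2 fold change 0.43), among them Bmp4, a secreted inhibitor of differentiation (0.81, SE 0.20, edgeR adjusted p = 0.00389), Neu4, a sialidase (0.72, SE 0.20, adjusted p = 0.0143), and Fyn, a kinase of early myelination (0.62, SE 0.13, adjusted p = 0.000297). Of 12 OPC genes, 6 rose and 0 fell (median 0.81), with Megf11 at 0.98, Xylt1 at 0.95 and Cacng4 at 0.92. By genotype, edgeR called 1 of the 12 OPC genes (median 0.42) and 0 of the 10 committed genes (median 0.38) higher in GR-Con, and 9 of 12 (median 0.95) and 4 of 10 (median 0.47) higher in GR-KO, where 10 of 12 neuron markers fell in the same nuclei. Depth differed there too: Oligo nuclei had a median of 11134 and 15571 UMIs in NR GR-KO and 7040 and 7308 in DR GR-KO. Of 12 lineage transcription factors 2 rose, Tcf7l2 (0.52) and Nkx2-2 (0.45), both used in the step out of the precursor state. Of 10 inhibitors of differentiation, 3 rose, among them Sox6 (0.85) and Sox5 (0.67), and Id2 fell (-0.60). Of 10 late mature genes, 8 were tested and 1 fell, Hapln2, a link protein at nodes (-0.99, SE 0.21, edgeR adjusted p = 0.000333). Of 19 other myelin and paranode proteins and 10 myelin lipid enzymes, 0 passed (medians -0.11 and -0.14).

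The share of Oligo nuclei that held at least 2 of the 4 committed-stage genes differed as well. OPC nuclei met this cut too, 642 with 2 genes and 65 with 3. A UMI of at least 2 of the 4 genes was found in 15.4 to 27.5% of Oligo nuclei of the NR libraries and in 25.4 to 29.99% of those of the DR libraries. With nuclei of at least 4000 UMIs thinned to 4000, the shares were 10.8 to 18.6% in NR and 19.98 to 26.2% in DR, without overlap. Bmp4 and Neu4 themselves rose in DR, so this share is a description and gets no test. When only nuclei with 0 or 1 of the 4 genes were fitted, 0 of the 9 genes passed (edgeR), Opalin was at -0.15 (adjusted p = 0.753), Bcas1 at 0.10 (adjusted p = 0.922) and Mog at -0.13 (adjusted p = 0.865). In those nuclei 0 of the other 6 committed genes passed, at a median log2 fold change of 0.32, with Fyn at 0.40 (edgeR adjusted p = 0.0934), and Tcf7l2 was at 0.48 (adjusted p = 0.123). Sox6, 1 of 11 OPC genes tested and also on the list of inhibitors, rose there (0.91, edgeR adjusted p = 0.000955), and Hapln2 fell (-0.84, adjusted p = 0.0121). Of 12123 features tested there, 127 passed, 33 of them higher. With so few calls over all features, the count of 0 of 9 is no result about the 9 genes.
In the late nuclei Opalin was at 352 to 423 CPM in NR and 296 to 401.5 CPM in DR. In the nuclei with 2 of the 4 genes it was at 108 to 197 CPM in NR and 19.5 to 89.4 CPM in DR, and Mal there was at 146 to 191 CPM in NR and 21.5 to 107.6 CPM in DR. This class had 46 to 78 nuclei per library and gets no test. In it Mog and Mobp were also lower and Bcas1 higher in DR without overlap, while Mbp, Mag, Cnp and Myrf overlapped. How many of all features separate so in this class is not given, so no result about the 9 genes is read from it. Astrocyte markers were lower in DR Oligo nuclei (127 to 170.1 CPM summed over 7 genes, 162 to 203 CPM in NR), with 2 of 6 tested passing, and neuron markers stood at 559.95 to 891 CPM in DR and 519 to 1425 CPM in NR, with 2 of 12 lower. Without the 10% of nuclei richest in neuron markers Opalin was at -0.34 (edgeR adjusted p = 0.0326), and the part of the astrocyte RNA was not tested.

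Within each genotype the fit without sex as a term gave no call for the 9 genes in Oligo nuclei. For DR against NR in GR-Con, edgeR called 0 of 9 (background 0.615%; 0 at an unadjusted p under 0.05, 0 by DESeq2 and 0 in the quasi-likelihood fit), with 7 of 9 log2 fold changes below 0. In GR-KO it called 0 of 9 (background 3.79%; 2 at an unadjusted p under 0.05, 0 by either other tool), but with sex as a term 2 passed, Opalin and Bcas1. The share of all features called in the fit with sex is not given, so this count has no background. Opalin had log2 fold changes of -0.32 (SE 0.20) in GR-Con and -0.37 (SE 0.15) in GR-KO, and Bcas1 of 0.33 (SE 0.21) and 0.43 (SE 0.20). The GR-Con count moved when the DR GR-Con male was left out. The DR group of that fit rests on the female alone, so no call is read from it.

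In OPC nuclei the same comparison over both genotypes called 0 of 7 genes tested (edgeR, background 2.21%; Mag and Opalin were below the count filter). All 7 log2 fold changes were below 0, as were 50.5% of all features, and 5 of 7 had an unadjusted p under 0.05, against 13.5% of all features. DESeq2 called 0 and the quasi-likelihood fit 0, and DESeq2 gave no adjusted p for Mog, Mobp, Cnp and Mal. Bcas1, at 880.3 and 607 CPM in NR GR-Con, 661 and 729 in NR GR-KO, 519 and 743 in DR GR-Con and 579 and 701 in DR GR-KO, had a log2 fold change of -0.14 (SE 0.14, edgeR adjusted p = 0.711). Myrf was at 19.0 and 6.88 CPM in NR GR-Con, 14.1 and 11.8 in NR GR-KO, 10.25 and 16.0 in DR GR-Con and 13.4 and 11.6 in DR GR-KO (-0.01, SE 0.26). For Bcas1 and for Myrf the DR and NR libraries overlapped.

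The other genes tested in OPC nuclei had lower DR means, and for Mal and Mbp the DR and NR libraries did not overlap. The share of all features without such an overlap is not given. Mal was at 15.7 and 9.82 CPM in NR GR-Con, 17.8 and 11.8 in NR GR-KO, 8.02 and 6.67 in DR GR-Con and 8.41 and 8.68 in DR GR-KO, without overlap (-0.78, SE 0.24, edgeR adjusted p = 0.0546; -0.76 and adjusted p = 0.0348 with sex as a term). Mobp was at 15.4 and 15.7, 28.5 and 20.25, 12.9 and 7.12, and 6.43 and 19.8 CPM in the same order of groups (-0.74, SE 0.26, edgeR adjusted p = 0.123). Mog was at 7.52 and 4.91, 5.92 and 8.48, 4.46 and 3.11, and 4.95 and 3.38 CPM (-0.72, SE 0.32, edgeR adjusted p = 0.258). Mal stood in OPC nuclei at 1.14 times its level in astrocyte nuclei, Mobp at 1.09 times, Mog at 1.08 times and Cnp at 1.10 times. Their differences are given as values, and no change within OPCs is read from them. The ratio to Mog in OPC nuclei was 20.8 times that of Oligo nuclei for Cnp and 6.38 times for Mal. The origin of this RNA was not tested. Mbp, 1.86-fold above astrocytes, was at 73.9 and 70.7, 102 and 84.3, 68.6 and 64.9, and 57.4 and 69.0 CPM, without overlap between NR and DR (-0.31, SE 0.12, edgeR adjusted p = 0.201). Cnp was at 21.6 and 14.7, 20.0 and 22.1, 15.2 and 13.8, and 16.3 and 11.1 CPM (-0.45, SE 0.19, edgeR adjusted p = 0.24). Mag ran from 2.67 to 10.8 CPM and Opalin from 0.445 to 2.35 CPM over the 8 libraries. Within one genotype, DR against NR called 0 of 7 genes in GR-Con (edgeR, background 0.174%; 1 at an unadjusted p under 0.05) and 0 of 8 in GR-KO (background 2.07%; 5 at an unadjusted p under 0.05), and 0 by either other tool in both. With sex as a term 2 passed in GR-KO, Mbp and Mobp, and the share of all features called in that fit is not given.
Of the lists, 3 of 14 other myelin genes tested fell in DR OPC nuclei, among them Ninj2 (-0.79, SE 0.14, edgeR adjusted p = 2.72e-05) and Tppp (-0.61, adjusted p = 0.0434), as did Ugt8a, the enzyme of galactocerebroside synthesis (-0.30, adjusted p = 0.0366), and Ptgds, 1 of 6 late mature genes tested and highest in VLMC nuclei (-2.001, adjusted p = 0.00826). Of 12 OPC genes 2 rose, Xylt1 (0.51) and Megf11 (0.36). Neuron markers fell in 2 of 12 cases there, Gad2 (-1.33) and Nrgn (-0.84). Of 5 astrocyte markers tested 0 were called, with 5 below 0 (median -0.39). Of 3 microglia markers 0 were called, with 3 below 0 (median -0.37).

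**Figure D4:**
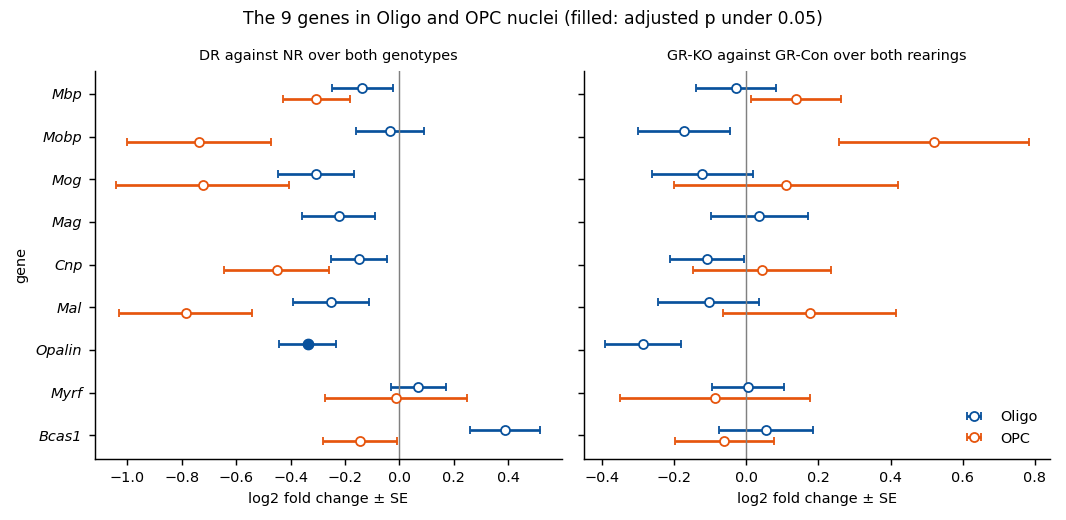
Log2 fold change with its standard error of the 9 genes in Oligo and OPC nuclei, DR against NR over both genotypes (left) and GR-KO against GR-Con over both rearings (right); filled points passed an adjusted p of 0.05, and genes below the count filter have no point. The filled point is Opalin in Oligo nuclei, at -0.34 on the left.

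Deletion of GR in astrocytes was compared with its control to ask whether these cells carry a change over to the oligodendrocyte lineage. Over both rearings (4 GR-KO against 4 GR-Con libraries, rearing as a term), 0 of the 9 genes passed in Oligo nuclei (edgeR, background 0.023%, 3 of 13056 features; 1 gene at an unadjusted p under 0.05; 0 by DESeq2 and 0 in the quasi-likelihood fit). The gene at an unadjusted p under 0.05 was Opalin, at -0.29 (SE 0.11, edgeR adjusted p = 0.625), whose values stand above. The other 8 log2 fold changes lay between -0.17 (Mobp, SE 0.13) and 0.06 (Bcas1, SE 0.13). In NR edgeR called 0 of 9 (background 1.53%) and in DR 0 of 9 (background 0.00782%), with 0 of 9 at an unadjusted p under 0.05 in both and 0 by either other tool. In NR all 9 log2 fold changes were below 0, from -0.31 (Mobp) to -0.003 (Bcas1, -0.00287), as were 51.7% of all features, and in DR 4 of 9 were. In the NR GR-KO libraries 7 of 12 neuron markers were called higher in Oligo nuclei than in NR GR-Con, among them Kcnip4 (1.62, SE 0.25, edgeR adjusted p = 5.77e-08) and Rbfox3 (1.24, adjusted p = 0.000796). Without the 10% of nuclei richest in neuron markers the count of the 9 genes called in NR was again 0.

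In OPC nuclei 0 of 7 genes tested passed over both rearings (edgeR, background 0.0884%; 1 at an unadjusted p under 0.05, Mobp at 0.52, SE 0.26; 0 by either other tool). In NR 0 of 8 passed (background 0.355%; 2 at an unadjusted p under 0.05) and in DR 0 of 6 (background 0.371%; 0 at an unadjusted p under 0.05). Bcas1 stood at -0.06 (SE 0.14) and Myrf at -0.09 (SE 0.26) over both rearings. Of 6 late mature genes tested, 1 was higher in GR-KO OPC nuclei, Anln (1.53, SE 0.36, edgeR adjusted p = 0.0212).

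Whether the genotype difference depended on rearing was tested as an interaction over the 8 libraries. It passed for 0 of 9 genes in Oligo (edgeR, background 0.451%) and 0 of 8 in OPC nuclei (background 0.0917%), with 0 at an unadjusted p under 0.05 in either and 0 by either other tool. In Oligo nuclei the interaction, coded as the GR-KO difference in NR minus that in DR, was 0.05 (SE 0.23) for Opalin and -0.11 (SE 0.28) for Bcas1.

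The number of Oligo and OPC nuclei did not separate the groups. Oligo nuclei made up 5.77 ± 0.437% of all nuclei in GR-KO and 4.92 ± 1.07% in GR-Con libraries (n = 4 each, exact permutation test, two-sided p = 0.229), and 4.9975 ± 1.00% in DR and 5.69 ± 0.6999% in NR (exact permutation p = 0.343). OPC nuclei made up 2.78 ± 0.412% in GR-KO and 2.79 ± 0.619% in GR-Con (exact permutation p = 0.943), and 2.72 ± 0.491% in DR and 2.86 ± 0.547% in NR (exact permutation p = 0.657). The smallest p that 4 against 4 libraries can give is 0.0286. There were 1.63 to 2.44 Oligo nuclei per OPC nucleus over the libraries.

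Outside the lineage, most of the tested pairs of gene and type stood higher in GR-KO than in GR-Con in the dark and in normal light. Those called in the dark were mainly Mbp in excitatory neurons. Both DR GR-KO libraries were shallower than both DR GR-Con libraries, and in NR both GR-KO libraries were deeper. Depth and genotype therefore cannot be told apart in these comparisons. For GR-KO against GR-Con in DR, 10 of 79 pairs of gene and type were called, all higher (0.556% of all pairs of feature and type were called), and 7 of them were Mbp in excitatory types: L2/3, L4, L5IT, L5PT, L6IT, L6CT and L6b. The share of all features called higher in those types was 0.345%, 0.78%, 0.614%, 0.295%, 0.265%, 0.565% and 0.162%. In L6CT nuclei Mbp was at 35.1 (male) and 35.8 CPM (female) in DR GR-Con and at 70.9 and 71.1 CPM in DR GR-KO, against 40.2 and 26.1 CPM in NR GR-Con and 66.6 and 30.3 CPM in NR GR-KO (log2 fold change in DR 1.00, SE 0.16, edgeR adjusted p = 7.67e-07). In L5PT it was at 70.6 and 78.3 CPM in DR GR-Con and 147 and 133 CPM in DR GR-KO (0.94, SE 0.15, edgeR adjusted p = 1.17e-06), with 87.3 and 69.5 CPM in NR GR-Con and 107 and 28.9 CPM in NR GR-KO. An NR GR-KO library held as few as 59 L5PT nuclei. In each of the 7 types both DR GR-KO libraries lay above both DR GR-Con libraries. These types were picked by their calls in the same 4 libraries, so this order is no support of its own. The types share these 4 libraries, so they are not separate observations. In L5IT (0.74, SE 0.13, adjusted p = 4.36e-05), L6b (1.11, SE 0.21, adjusted p = 0.000315) and L2/3 (0.75, SE 0.16, adjusted p = 0.00202) the edgeR difference was of like size, while in L5NP it was 0.28 (edgeR adjusted p = 1). The other 3 called pairs were Bcas1 in Sst nuclei (1.66, edgeR adjusted p = 0.00311; 0.357% of all features higher) and Bcas1 and Mobp in Lamp5 nuclei (0.237% higher), and DESeq2 called none of these 3. The direction was not particular to Mbp: 7 of the 79 pairs had a log2 fold change below 0, the median over the 79 was 0.38, and 24 had an unadjusted p under 0.05. Nor was it particular to darkness: in NR 18 of 95 pairs were below 0, with a median of 0.35. The shares of all pairs of feature and type below 0 or at an unadjusted p under 0.05 are not given. In DR the median was 0.74 for Mbp (13 types), 0.69 for Mal (11 types, 1 below 0), 0.37 for Mag (6 types, 0 below 0), 0.33 for Mobp (13 types, 1 below 0), 0.26 for Mog (10 types, 1 below 0) and 0.22 for Cnp (12 types, 1 below 0). It was lowest for Bcas1, at 0.12 (11 types, 3 below 0). Opalin had 0.39 (2 types) and Myrf 0.71 (1 type). Mal, Mag, Mog and Cnp had 0 calls by edgeR, and whether Mbp differed more than they did was not tested.

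The Mbp calls depended on the test. DESeq2 kept all 7, and the edgeR quasi-likelihood test kept 0, with adjusted p from 0.175 to 0.586. Leaving out 1 library at a time gave 20 calls of 28, and without the DR GR-KO female 2 of the 7 were called (L5IT and L5PT). Each of these fits left 1 library in an arm, which was assumed to vary like the other pair, so they are no measure of stability. In NR 0 of 8 excitatory types were called for Mbp (edgeR, 1 at an unadjusted p under 0.05), where the GR-KO male was high and the GR-KO female was not, and over both rearings 0 of 8 (6 at an unadjusted p under 0.05). The interaction with rearing was called for 0 of the 92 pairs outside the lineage (edgeR, 0.167% of all pairs of feature and type; 6 at an unadjusted p under 0.05, no other tool run) and for 0 of 8 excitatory types for Mbp, so a difference between DR and NR in the genotype effect was not shown.

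**Figure D5:**
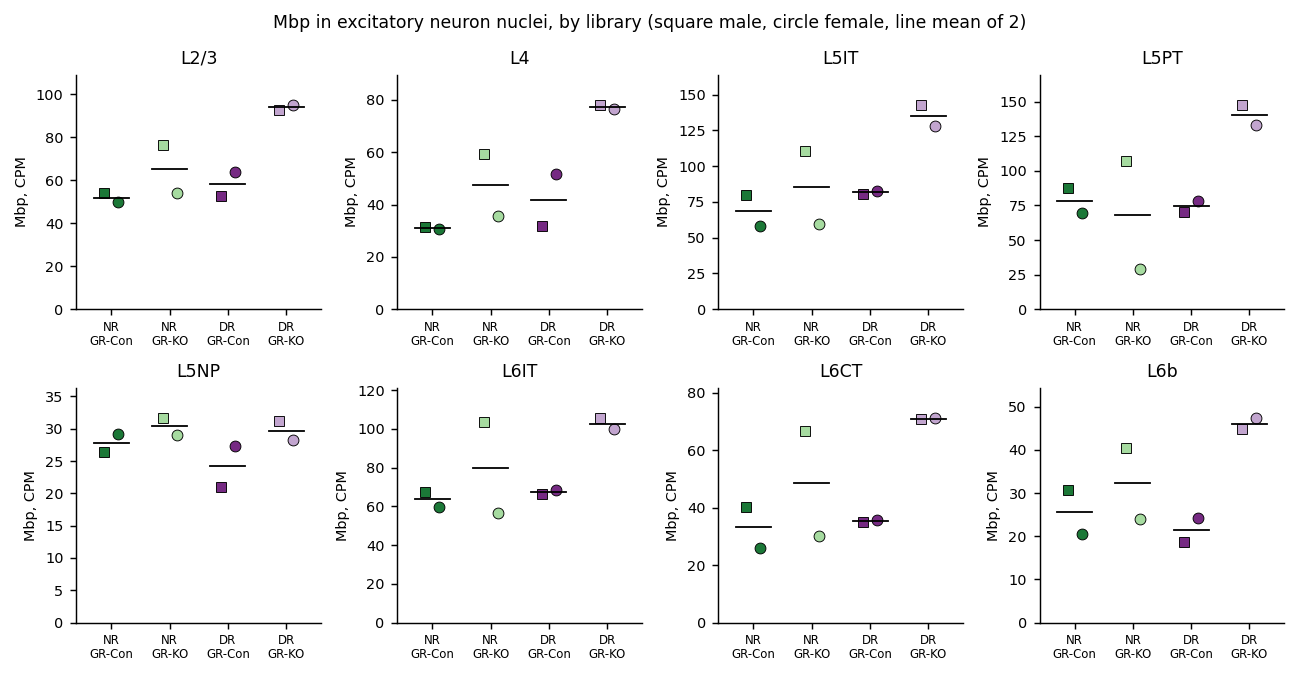
Mbp CPM in the nuclei of the 8 excitatory types, 1 point per library (square male, circle female) with the mean of the 2 libraries of each group as a line; axes start at 0. In L6CT the DR GR-KO libraries sit at 70.9 and 71.1 CPM and the DR GR-Con libraries at 35.1 and 35.8 CPM, and the NR GR-KO male is high as well at 66.6 CPM.

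The other genes, at trace levels in neurons, were mostly lower in darkness where they were called. For DR against NR over both genotypes, 26 of 83 pairs outside the lineage were called by edgeR (5.78% of all pairs of feature and type), 25 lower and 1 higher (Mbp in L4, 0.60, SE 0.19, adjusted p = 0.0283; 4.79% of all features in L4 higher). Mal was lower in 7 of 12 types tested, Mog in 5 of 10, Mobp in 4 of 13, Mag in 4 of 7 and Opalin in 2 of 3. The 5 pairs with the smallest adjusted p were Mog in L6CT (-1.39, SE 0.21, edgeR adjusted p = 1.46e-08), Mal in L4 (-1.02, adjusted p = 9.62e-07), Mal in L2/3 (-0.99, adjusted p = 1.07e-06), Bcas1 in L5PT (-1.38, adjusted p = 1.34e-06) and Mog in L2/3 (-0.94, adjusted p = 1.84e-06). In these types 5.24% (L4), 8.45% (L2/3), 6.1% (L6CT) and 2.01% (L5PT) of all features were called lower. The other types with a lower call were L6IT (3.47% of all features lower), L5IT (2.54%), L5NP (1.28%), Sst (0.451%) and astrocytes (0.729%), where Mbp and Mobp were called. In L6CT nuclei Mog was at 2.61 and 1.72 CPM in NR GR-Con and 2.79 and 2.88 CPM in NR GR-KO. It was at 0.996 and 0.77 CPM in DR GR-Con and 1.03 and 0.964 CPM in DR GR-KO, without overlap. Mog had a UMI in 3.84% of L2/3 and 3.27% of astrocyte nuclei, and in 0.306% and 1.10% thinned to 2000 UMIs, and no change within neurons is read from it. For Mal, whose ratio to Mog in these types exceeded that of Oligo nuclei, the origin of the RNA was not tested. Mog in Oligo nuclei had a log2 fold change of -0.31 between the same libraries. Of the 26 calls, 17 held in the quasi-likelihood fit and 17 in DESeq2.

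Bcas1 in L5PT nuclei was the single pair called for GR-KO against GR-Con over both rearings (edgeR, -1.25, SE 0.24, adjusted p = 0.000418, 1 of 83 pairs against 0.437% of all pairs of feature and type; 0.0972% of all features in L5PT were called lower, and 32 of the 83 pairs had an unadjusted p under 0.05). It was at 6.67 and 5.31 CPM in NR GR-Con, 2.58 and 1.85 CPM in NR GR-KO, 1.85 and 2.60 CPM in DR GR-Con and 0.919 and 1.03 CPM in DR GR-KO. NR GR-Con was high and the other groups were low. An NR GR-KO library held only 59 L5PT nuclei, and Bcas1 had 289 UMIs in L5PT over all 8 libraries. The fall with darkness was -1.38 (SE 0.23, edgeR adjusted p = 1.34e-06), called in all 8 fits that left out 1 library. Within NR, the genotypes differed in 2 of 95 pairs (0.781% of all pairs of feature and type; 16 of the 95 at an unadjusted p under 0.05), this one (-1.30, SE 0.31, edgeR adjusted p = 0.00453; 0.796% of all features lower) and Bcas1 in astrocytes, which was higher (0.79, SE 0.23, adjusted p = 0.0107; 3.73% of all features higher). Bcas1 in astrocytes was at 6.16 and 5.97 CPM in NR GR-Con and 10.3 and 11.6 CPM in NR GR-KO. Its ratio to Mog there was 1.19 times that of Oligo nuclei, and the origin of this RNA was not tested. No other tool was run on these genotype calls in NR and over both rearings, nor was a library left out.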

How the data were processed

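Nuclei of P21 mouse V1 were profiled by droplet-based 3′ RNA sequencing, 2 libraries for each of 4 groups. Per the labels and the study's methods, the authors aligned reads with Cell Ranger 8.0.1 to mm10 with an added EGFP annotation, removed low-count nuclei and doublets, clustered with Seurat 5.3.0 and named the types; the deposited matrix holds UMI counts (whole numbers in all 431229026 entries), used here with the deposited type and library of each nucleus. A library's group was read from its name (rearing, vector and sex). UMIs were summed per library and type. Types with at least 10 nuclei in every library of a comparison were fitted over all features passing filterByExpr with edgeR 4.0.16 (R 4.3.3; TMM factors, likelihood ratio test as in the study, Benjamini-Hochberg adjustment, called under 0.05; the SE is the absolute log2 fold change over the square root of the likelihood ratio). Alternatives were the quasi-likelihood test, DESeq2 1.42.0, RLE factors, no filter, sex as a term, leaving out the 10% of nuclei richest in neuron markers, and leaving out each library. The fits were tested on simulated data.

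The 9 genes and all lists were chosen with earlier results of these data known. All 9 were named with every library's value in Oligo and OPC; of each list, up to 3 called genes per type with the largest change and an average log2 CPM of at least 3 were named; outside the lineage, up to 5 called pairs per comparison with the smallest adjusted p, beside further Mbp types and the remaining called pairs of comparisons, chosen after their values were seen; and the 10 genes most alike over types, of which 1 is not reported here. The division of Oligo nuclei by 4 committed-stage genes and the alternatives outside the lineage were chosen after seeing the data. Thinning drew UMIs without replacement. Promoter stretches came from RefSeq (GRCm38.p6) and end before the outermost RefSeq or GENCODE start. Promoters of Mbp, Myrf and Bcas1 and all proteins were not analysed here.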

Additional observations from a re-analysis of the deposited data

How the results depend on the processing

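Of 215 values recomputed for 18 counts and shares, 189 kept their direction and side, counts of 0 that stayed at 0 included. Of the values recomputed for single genes and levels, 779 did so, 219 lost their call, 8 gained one, 100 moved and 1 reversed. For DR against NR over both genotypes in Oligo nuclei (1 gene called), the quasi-likelihood test called 0, DESeq2 2 (Opalin and Bcas1), no filter on low counts 0, sex as a term 2 (the same pair), and nuclei with 0 or 1 of 4 committed-stage genes 0, where by construction the committed nuclei are missing; leaving out 1 library gave 0 to 1. For DR against NR in GR-KO, sex as a term called 2 genes in Oligo and 2 in OPC nuclei, and leaving out 1 library gave 0 to 1 and 0 to 2. For DR against NR in GR-Con in Oligo nuclei leaving out 1 library gave 0 to 3, each within-genotype fit then having 1 arm of 1 library, assumed to vary like the other pair. In OPC nuclei DR against NR over both genotypes gave 1 call with sex as a term (Mal) and 0 to 2 without 1 library. The cause of these changes was not tested. Except for nuclei with 0 or 1 of the 4 genes, the shares of all features called in these alternative fits are not given. Those counts thus have no background. The difference in Oligo share between GR-KO and GR-Con was 0.849 percentage points of all nuclei and -0.0876 of non-neuronal nuclei; without 1 library the OPC differences ran from -0.219 to 0.267 for genotype and -0.352 to 0.124 for rearing, around values near 0. In nuclei with 0 or 1 of the 4 genes, Nkx2-2 turned from 0.45 to -0.0047. No paired analysis was possible because the library names carry sex and not the replicate number of the labels; the fits with sex as a term above block the libraries by sex. The small number of animals per group (2), free RNA in droplets and type names taken from the deposited clusters limit all values.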
